A study of Homo sapiens with 11 samples.

Results

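Windows of RNA recovered with RPS19 were examined where the leading annotation was the lists' label for an mRNA exon outside coding sequence and UTRs. They were chosen as the rows of the deposited enriched-window lists with that leading annotation, without the genes EEF1A1 and RPS19. The choice used the annotation and not the enrichment. The 3 lists together held 3336 such windows of 122708 listed windows, in 902 genes. There were 2294 of 93331 windows in the R101H list, 2478 of 86567 in the R62W list and 440 of 15402 in the wild-type (WT) list. EEF1A1 and RPS19 accounted for a further 4, 6 and 6 windows in R101H, R62W and WT, which were left out.

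The data came from enhanced crosslinking and immunoprecipitation (eCLIP), in which RNA is crosslinked to protein in living cells, trimmed with RNase I, pulled down with the protein and sequenced. The cells were HEK293T, a human embryonic kidney line that carries the SV40 large T antigen. Plasmids expressed V5-tagged RPS19 R101H (2 immunoprecipitated samples), RPS19 R62W (3 samples) or RPS19 WT (3 samples), so each group overexpressed a tagged protein beside the cells' own RPS19. The 3 size-matched input samples came from cells that received no plasmid, and no antibody was used for them. R62W and R101H are substitutions of Diamond-Blackfan anemia, an inherited failure of red cell production. The lists address which RNA is recovered with RPS19 and how the substitutions alter it.

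RPS19 is a protein of the small ribosomal subunit and is needed for the maturation of its 18S rRNA. A retained intron is an intron that stays in a polyadenylated transcript. Such transcripts are often kept in the nucleus, or are degraded by nonsense-mediated decay after export, and genes of splicing factors are known for making them. In gene annotation, a transcript model that keeps an intron is usually given no reading frame, so all of it counts as a non-coding exon, the retained intron included.

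The annotation of the windows was of this kind. A transcript labelled as a retained-intron isoform overlapped 99.4% of the 3336 windows, namely 2280 (99.4%) in R101H, 2467 (99.6%) in R62W and 438 (99.5%) in WT. Among listed windows with another leading annotation, such a transcript overlapped 14.4% in R101H, 15.4% in R62W and 14.9% in WT. The windows are therefore called retained-intron isoform exon windows here. A transcript labelled protein-coding also overlapped 72.3% of them in R101H, 74.7% in R62W and 81.6% in WT. Such an overlap can be with an intron of that transcript and does not show coding sequence. The annotation held an intron at 77.7% of the windows in R101H, 80.1% in R62W and 86.8% in WT. Transcripts labelled as targets of nonsense-mediated decay overlapped 21.9%, 23.4% and 20.2% in R101H, R62W and WT. Protein-coding genes held 89.1%, 89.1% and 92.0% of the windows in R101H, R62W and WT, and the rest lay mostly in lncRNA genes and transcribed pseudogenes.

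No genome sequence was used, so sequence was read only where a window lay inside a RefSeq promoter entry (250 bases before to 50 after a gene's annotated start, GRCh38.p14) or over a RefSeq miRNA. Of the 3336 windows, 34 lay wholly inside a promoter entry, and the G and C content of each of the 34 equalled the value in the deposited lists. These examples were chosen after their values were seen. The windows of RPL10, TIMM50 and TMEM183A are shown because they were annotated as lying next to splice sites and hold one of the motifs below, and SNRPD3 because it was in all 3 lists. Capitals mark GTAAG or GTGAG, the usual start of an intron, and CAG at the very end, the usual end of an intron. RPL10 is chrX:154398399-154398496 (plus strand), TIMM50 is chr19:39483062-39483134 (plus strand), TMEM183A is chr1:203007575-203007673 (plus strand) and SNRPD3 is chr22:24555958-24555998 (plus strand).
RPL10: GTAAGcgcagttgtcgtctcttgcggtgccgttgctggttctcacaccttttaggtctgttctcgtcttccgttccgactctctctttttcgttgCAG
TIMM50: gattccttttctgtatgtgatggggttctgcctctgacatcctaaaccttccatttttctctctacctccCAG
TMEM183A: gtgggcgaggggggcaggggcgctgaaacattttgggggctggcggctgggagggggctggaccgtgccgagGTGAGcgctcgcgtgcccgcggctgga
SNRPD3: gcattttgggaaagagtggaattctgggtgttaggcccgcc

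The RPL10 window ran from GTAAG to CAG over 98 bases and was annotated as next to a splice site at each of its ends. RPL10 encodes a large-subunit ribosomal protein. The window had a mean log2 odds ratio of IP over input of 1.81 in R101H and 1.22 in R62W, from pooled IP counts of 450 and 451 over pooled input counts of 133 and 211, and it was not in the WT list. The TIMM50 window, from the gene of a mitochondrial protein import subunit, was listed in R101H alone at 2.97 (IP count 21, input count 2). The TMEM183A window was listed in R62W alone at 2.96 (IP count 18, input count 1). SNRPD3 encodes the core spliceosomal protein SmD3, and its window had 1.97 in R101H, 1.78 in R62W and 1.48 in WT, over input counts of 18, 26 and 14. The motifs were searched on the transcribed strand only. Of the 23 windows of at least 30 bases inside promoter entries, 3 held GTAAG or GTGAG and 3 ended in CAG. The windows of NDUFAF8 and SLX1A, also annotated as next to splice sites, held neither. Among all 35116 promoter entries, 14.3% held GTAAG or GTGAG in their first 98 bases and 2.44% had CAG ending at base 98.

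The other sequences shown are the miRNAs of the miR-17-92 cluster, whose host gene MIR17HG had windows over the miRNA hairpins in the substitution lists. This gene was singled out after its values were seen. The miRNAs of this cluster promote cell proliferation and are grouped here by seed, the bases 2 to 8 that pair with target mRNAs, which are in capitals.
hsa-miR-17-5p: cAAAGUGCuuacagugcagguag
hsa-miR-20a-5p: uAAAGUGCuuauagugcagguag
hsa-miR-18a-5p: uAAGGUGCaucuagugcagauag
hsa-miR-19a-3p: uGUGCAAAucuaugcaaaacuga
hsa-miR-19b-3p: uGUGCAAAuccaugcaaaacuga
hsa-miR-92a-3p: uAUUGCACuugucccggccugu

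In the lists, each window carries IP and input read counts pooled over replicates and the log2 odds ratio of IP over input as its lowest, mean and highest value over the replicates in which it passed. A log2 odds ratio of 2 is a 4-fold enrichment. From the values, a window was listed when it passed in at least 2 replicates with a highest q under 0.2, so a window left out of a list has no value there. These enrichment values are the authors' own, read from each window's row. The R101H lists rest on 2 samples, so each R101H window passed in both, while 1005 (40.6%) of the R62W windows and 85 (19.3%) of the WT windows passed in all 3. The counts were low. The median pooled IP count was 44 in R101H, 44 in R62W and 47 in WT, and the median pooled input count was 10, 11 and 11. Library totals were not used here, and the intervals of shares below are exact binomial 95% intervals that cover counting error only. As a check of the cells, 5 of 10 genes chosen as HEK293T markers had a listed window in R101H, 4 in R62W and 2 in WT. Among them were NEFL, VIM, DDX1 and XRCC5, while PAX2, EYA1, LHX1, NEFM and INA had none in any list. Of 11 markers of other cell types, 0 had one. The check is therefore a weak one.

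The windows were a small part of each list. They made up 2.46% of the R101H list (2.36 to 2.56), 2.86% of the R62W list (2.75 to 2.98) and 2.86% of the WT list (2.60 to 3.13). The R101H interval lay below that of R62W. With each list cut to the WT length, the shares were 1.62% in R101H, 2.18% in R62W and 2.86% in WT. Their median log2 odds ratio was 1.94 in R101H, 1.92 in R62W and 1.97 in WT, beside 2.00, 1.90 and 2.03 over all listed windows. The values ran from 0.49 to 6.19 in R101H, 0.58 to 5.48 in R62W and 0.54 to 4.56 in WT. The ranges of the lists overlapped widely.

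The R101H list held 5.21 times and the R62W list 5.63 times as many of these windows as the WT list. The whole lists were 6.06 times as long in R101H as in WT and 5.62 times in R62W. Introns grew less, by 2.07 times in R101H and 2.41 times in R62W over WT, and coding sequence grew more, by 9.10 and 8.35 times. The ratios were 7.45 and 6.10 for 3' UTR windows, 6.74 and 6.50 for 5' UTR windows, and 3.96 and 4.01 for exons of lncRNAs. Each group has 1 list, so these ratios carry no test between groups.

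Within the set, growth followed how the rest of the annotation read the window. A window with an intron in no transcript model was listed 8.81 times as often in R101H as in WT (511 against 58) and 8.50 times as often in R62W (493 against 58), near the ratio of coding sequence. Windows that are intron in another model and lie next to a splice site grew by 4.90 times in R101H and 5.45 times in R62W. Those far from splice sites grew by 3.61 and 3.95 times, the closest to introns. Windows with no intron in any model thus made up 22.3% of the set in R101H (20.6 to 24.0) and 19.9% in R62W (18.3 to 21.5), against 13.2% in WT (10.2 to 16.7). Windows next to a splice site were the majority or close to it in each list, at 49.5% in R101H, 51.0% in R62W and 52.7% in WT. Windows overlapped by no transcript type other than retained-intron isoforms made up 18.2% in R101H (16.6 to 19.8), 16.4% in R62W (15.0 to 17.9) and 8.86% in WT (6.38 to 11.9). Neighbouring windows of a gene are not independent, which these intervals do not cover.

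**Figure D1:**
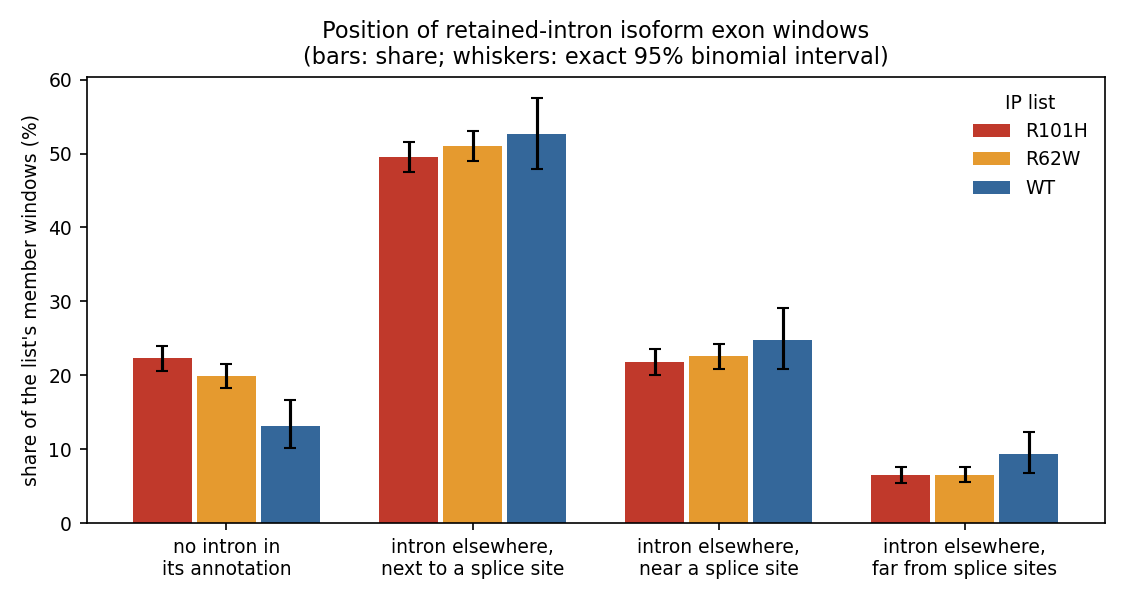
Share of the retained-intron isoform exon windows of each list (vertical axis, percent) by how the other annotation at the window reads (horizontal axis), for R101H (red), R62W (orange) and WT (blue), with exact 95% binomial intervals as whiskers. Windows with no intron in their annotation made up 22.3% in R101H and 19.9% in R62W, against 13.2% in WT, while windows next to a splice site were near 50% in each list (49.5%, 51.0% and 52.7%).

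The surroundings of the windows differed between the lists as well. In R101H and R62W, 80.2% of the genes with such a window also had a listed coding window (601 of 749 genes and 593 of 739 genes), against 51.6% in WT (116 of 225). A listed coding window touched 14.1% of the windows in R101H and 12.9% in R62W, against 4.09% in WT. Conversely, 47.3% of the windows in R101H and 43.2% in R62W had no listed window touching them, against 71.1% in WT. The lists differ in length, and the part of list length in these shares was not tested.

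At the deposited list lengths, WT windows of the set were often also listed with the substitutions, as were WT windows of any annotation. R62W and WT shared 376 windows, which is 15.2% of those in R62W and 85.5% of those in WT (81.8 to 88.6). R101H and WT shared 324, which is 14.1% of those in R101H and 73.6% of those in WT (69.3 to 77.7). Over all listed windows the shares of WT were 79.6% in R62W and 72.0% in R101H. WT then held 14.2% of all R62W windows and 11.9% of all R101H windows. With each list cut to the WT length, the shares for the set were 33.6% in R62W and 31.8% in R101H. R101H and R62W shared 1484, or 64.7% of those in R101H and 59.9% of those in R62W. Over all listed windows these shares were 64.2% and 69.2%, so the R62W share of the set lay below that of all windows. Among intron windows, R62W held 48.7% of those in WT and R101H held 33.7%. Among coding windows the shares of WT were 93.9% in R62W and 89.9% in R101H, so the retained-intron isoform windows lay between the other classes.

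By list membership, 308 windows in 180 genes were in all 3 lists, 1176 windows in 477 genes were in both substitution lists and not in WT, and 48 windows in 34 genes were in WT alone. These were 9.23%, 35.3% and 1.44% of the 3336 windows, beside 8.66%, 40.1% and 2.19% of all 122708 listed windows. The windows in all 3 lists had median log2 odds ratios of 2.24 in R101H, 2.09 in R62W and 1.89 in WT. Those in both substitution lists and not in WT had 1.90 in R101H and 1.83 in R62W. The windows in WT alone had a median of 2.28 and a G and C content of 55.7%, against 51.0% for those in both substitutions. Over genes, 386 had windows in both substitutions and not in WT, 207 had windows in all 3 lists, 155 in R101H alone, 136 in R62W alone and 7 in WT alone. The 7 were MIDN, MRPL28, NUDT22, SCAMP2, TKFC, U2AF2 and UBE2A.

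The windows were spread over 902 genes, of which 335 had a single window and 226 had 5 or more. WDR90, which encodes a protein of the centriole wall, had the most, with 52 windows in R101H, 50 in R62W and 5 in WT (chromosome 16, 649401 to 663344, GRCh38). Of its 63 windows over the lists, 60 had no intron in their annotation, and no coding window of the gene was listed. Median log2 odds ratios were 1.91 in R101H, 1.85 in R62W and 1.86 in WT. The 4 WDR90 windows shared with WT were all higher in R101H (median difference 0.64) and in R62W (median 0.52). TAF1C encodes a subunit of the SL1 factor that starts rRNA transcription by RNA polymerase I. It had 39 windows in R101H, 38 in R62W and 6 in WT, with medians of 1.96, 1.84 and 2.27. The medians of a gene cover different windows in each list. In the 6 TAF1C windows shared with WT, 4 were higher in R101H (median difference 0.33) and 6 in R62W (median 0.40). Over shared windows of any annotation, the median difference from WT was 0.60 in R101H and 0.26 in R62W. All 44 TAF1C windows lacked an intron in their annotation, and again no coding window was listed. In these 2 genes the annotation thus gave an exon and no intron at nearly all of the windows. The label alone does not tell a retained intron from an ordinary exon there. Why no coding window was listed was not tested.

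The lncRNA LINC02593 was alike, with 12 windows in R101H, 23 in R62W and 1 in WT, all of them without an intron in the annotation. PI4KAP2, a pseudogene of the phosphatidylinositol kinase gene PI4KA, had 24 windows in R101H, 32 in R62W and 12 in WT. Its listed intron windows ran the other way, with 15 in R101H, 36 in R62W and 89 in WT. Reads of PI4KAP2 can also come from PI4KA and its other copies, so their position is uncertain.

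The other genes with most windows encode proteins that process RNA, and all their windows are intron in another transcript model. DDX39B, an RNA helicase of splicing and mRNA export that shares its locus with the readthrough gene ATP6V1G2-DDX39B, had 27 windows in R101H, 27 in R62W and 8 in WT. HNRNPH1, a splicing regulator that binds G-rich RNA, had 18 windows in R101H, 21 in R62W and 6 in WT. PTBP1, the polypyrimidine tract binding protein, departed from this order, with 7 windows in R101H, 19 in R62W and 10 in WT. DDX39B had median log2 odds ratios of 1.27 in R101H, 1.26 in R62W and 1.52 in WT, among the lowest of the named genes. These medians also cover different windows in each list. Of the DDX39B windows shared with WT, 6 of 7 were higher in R101H (median difference 0.76) and 6 of 8 in R62W (median 0.40). Input counts summed over the gene's 27, 27 and 8 windows were 2003 in R101H, 2580 in R62W and 530 in WT.

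**Figure D2:**
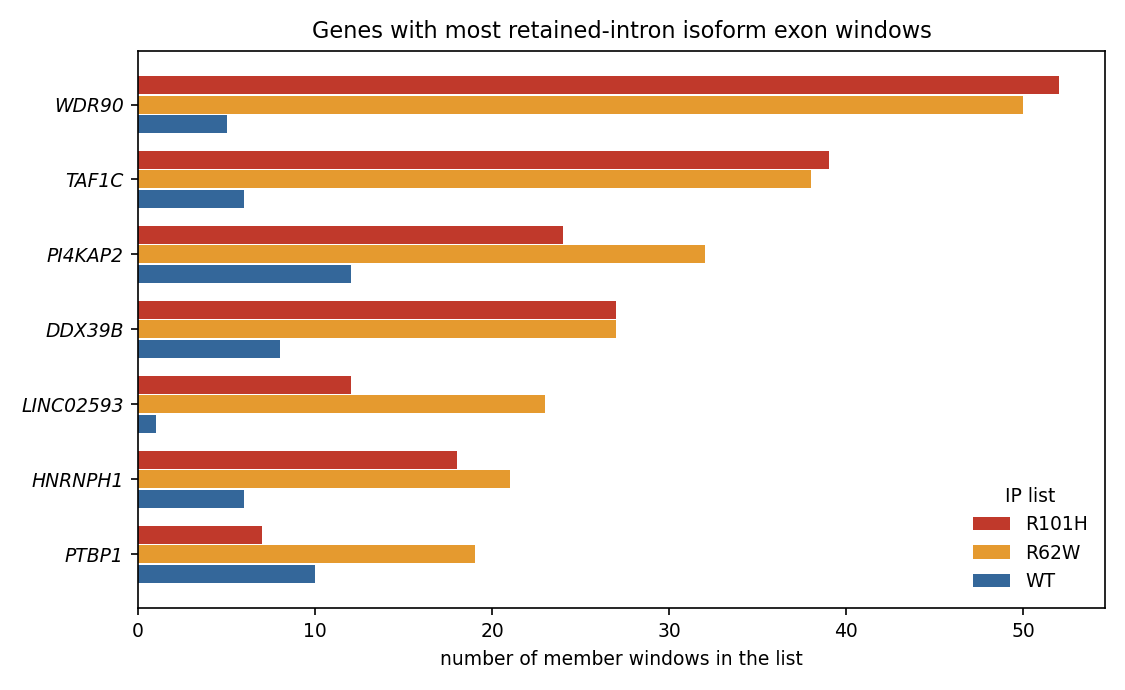
Number of retained-intron isoform exon windows (horizontal axis) in 7 of the 8 genes with most of them over the lists (vertical axis), for R101H (red), R62W (orange) and WT (blue). WDR90 had 52 windows in R101H and 50 in R62W, against 5 in WT, and PTBP1 had 7 in R101H, 19 in R62W and 10 in WT.

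The strongest windows were in other genes. The highest value of the set in R101H and in R62W was in NPIPA1, a member of the primate NPIP family of near-identical genes, at chr16:14941856-14941940 (plus strand). Its replicates had log2 odds ratios of 5.37 and 7.01 in R101H, 3.48, 6.25 and 6.72 in R62W, and 3.0 and 3.52 in the 2 WT samples that passed, over pooled input counts of 2, 4 and 3. All substitution replicates but 1 of R62W lay above both WT replicates. Since NPIPA1 reads can map to several copies, the locus is uncertain. The same holds for AC138969.4, which had means of 5.82 in R101H, 4.46 in R62W and 2.89 in WT over input counts of 1, 3 and 3.

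PSMB4, which encodes a beta subunit of the proteasome core, had 2 such windows. The first, at chr1:151400846-151400943 (plus strand), was in all 3 lists, with replicates of 3.04 and 5.98 in R101H, 2.32, 4.39 and 5.98 in R62W, and 4.03 and 4.83 in WT. These overlap fully. The second, at chr1:151401356-151401448, had 4.89 and 5.10 in R101H and 4.88 and 5.38 in R62W with an input count of 0 in each, and was not in the WT list. With so few input reads the size of the enrichment is uncertain.

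Other high windows in all 3 lists were in WSB1, a substrate receptor of a ubiquitin ligase, at 4.48 in R101H, 3.48 in R62W and 3.75 in WT, and in CDCA5, which encodes sororin, a protector of chromatid cohesion, at 4.20, 3.14 and 3.62. BRD2, a bromodomain protein of the BET family, had 4.21 in R101H, 3.60 in R62W and 2.93 in WT, and SAT2 had 4.32, 3.49 and 3.03. TRAF4, a signalling adaptor, ran the other way at 3.15, 3.69 and 3.67. Replicates of 1 group spread widely, from 1.90 to 5.45 in R62W for WSB1. In these 5 windows the passing replicates of the groups overlapped, except in BRD2, where 4.19 and 4.24 in R101H lay above 1.93 and 3.93 in WT.

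Some of the highest windows were missing from at least 1 list. ATP6V0B, a subunit of the proton pump of acidic organelles, led the WT list at 4.56 and had 4.66 in R62W, with no listed value in R101H. Its input count was 0 in WT and in R62W. MRPL28, a protein of the mitochondrial ribosome, had 4.36 in WT alone, MIDN had 4.24 and NUDT22 had 4.10, each with an input count of 0. The window of POLG, the mitochondrial DNA polymerase, had 4.72 in R101H and 3.43 in R62W. The highest SRSF5 window had 4.53 in R62W alone, with an input count of 0.

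MIR17HG, on chromosome 13, had 7 of these windows in R101H, 10 in R62W and 2 in WT. All 6 hairpins of the cluster were touched by a listed window. The highest window, chr13:91351050-91351146 (plus strand), holds the whole miR-20a hairpin, and its replicates had log2 odds ratios of 1.62 and 3.51 in R101H and 2.48, 3.44 and 4.04 in R62W, over pooled input counts of 8 and 9. The window over the 3' part of miR-19b-1 and the 5' part of miR-92a-1 (chr13:91351243-91351339) had 2.19, 3.04 and 3.30 in R62W and was in no other list. The window between the hairpins of miR-17 and miR-18a, touching each, had 1.56 and 2.12 in R101H and 1.02, 1.46 and 2.12 in R62W. Both WT windows lay upstream of the hairpins, at 1.43 (1.13 and 1.74) and 1.37 (1.13 and 1.62). In those windows, means were 1.94 and 1.54 in R101H and 1.71 and 1.48 in R62W, and the replicates of the groups overlapped or, for R101H and WT in the first, met at 1.74. Of the mature miRNAs shown above, miR-17-5p and miR-92a-3p lay outside the listed windows. Only 4 of the 23 bases of miR-18a-5p and 9 of the 23 bases of miR-19a-3p lay in one. All of miR-20a-5p lay in a window listed with both substitutions, and all of miR-19b-3p in a window of R62W alone. Which of the host RNA, the hairpin precursors or the mature miRNAs gave the reads cannot be told apart in these counts.

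**Figure D3:**
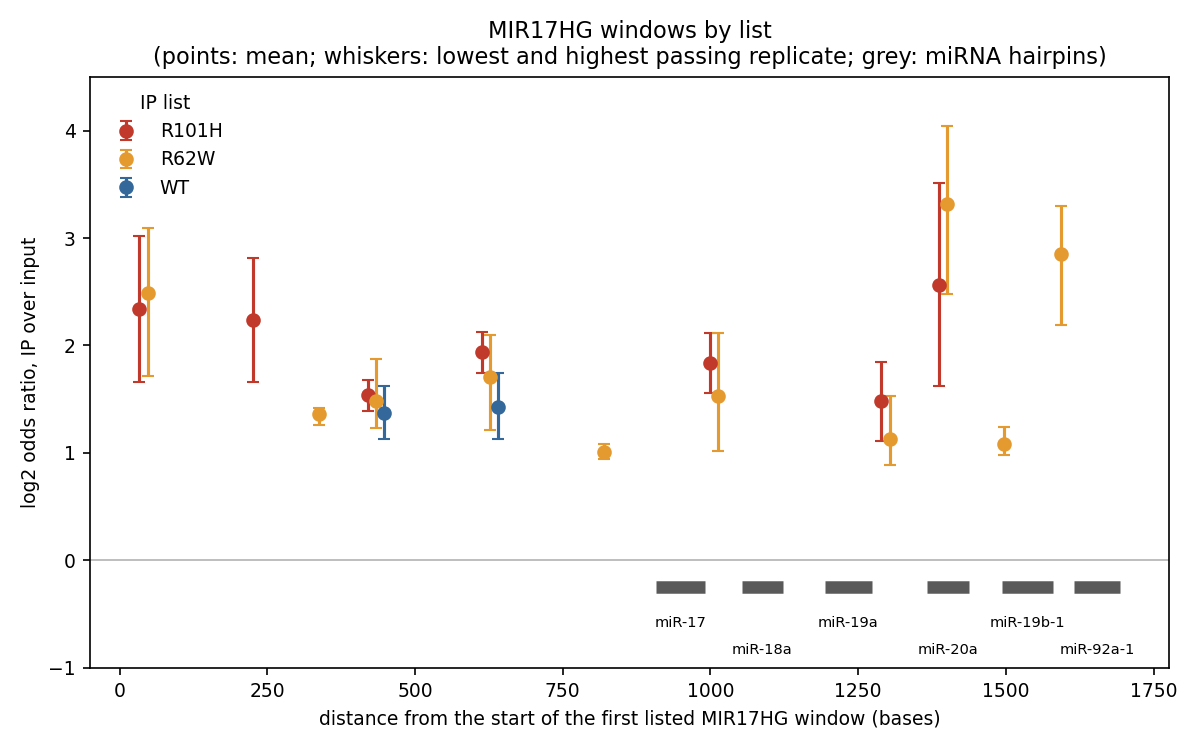
Log2 odds ratio of IP over input (vertical axis) of each listed MIR17HG window by its distance from the start of the first listed window in bases (horizontal axis), with points for the mean, whiskers for the lowest and highest passing replicate, and grey bars for the miRNA hairpins. Points of different lists are set slightly apart. Over the hairpins, R101H (red) and R62W (orange) have listed windows, the highest being 2.56 and 3.32 at miR-20a, and WT (blue) has none.

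Beyond this cluster, 4 other miRNA genes were touched. The mature miR-5047 lay in a DDX5 window at 0.99, and an AMH window at 1.15 held 13 of the 80 bases of the MIR4321 hairpin, both in R62W alone. MIR4784 lay across 2 windows of MZT2A, at 2.89 in R101H for one and 1.96 in R62W for the other, and MIR6751 lay in a SYVN1 window at 1.59 in R101H alone. In all, 10 miRNA genes were touched.

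Replicate values were compared for windows listed in both groups, with limma over all shared windows and Benjamini-Hochberg adjustment at 0.05. For R62W minus WT, 0 of 376 windows of the set passed, where 0 of all 12263 shared windows did (0% called), with 18 of the set (4.79%) and 10.2% of all windows at an unadjusted p under 0.05. With an intensity trend in limma, 0 passed and 19 had such a p. The median difference in log2 odds ratio was 0.18 over the set, and 253 windows (67.3%) were higher in R62W, beside 0.26 and 72.4% over all shared windows. The median standard error of a difference was 0.39, larger than this median, and a count of 0 does not show that the values did not differ.

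For R101H minus WT, 0 of 324 windows of the set passed, where 0 of 11082 shared windows did (0% called), with 34 (10.5%) and 21.3% at an unadjusted p under 0.05, and 35 of the set with the intensity trend, which also passed 0. The median difference was 0.39 and 243 windows (75%) were higher in R101H, beside 0.60 and 82.5% over all shared windows. The set therefore lay below the shift of all windows in both comparisons, and with differences taken relative to that shift its medians were -0.21 for R101H minus WT and -0.08 for R62W minus WT. These comparisons share the WT samples. In shared windows of the set that passed in every replicate, summed pooled input counts had a ratio of 0.631 for R101H over WT and 0.997 for R62W over WT. The part of the inputs in the R101H differences was not tested.

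For R101H minus R62W, 0 of 1484 windows passed, where 0 of 59874 did (0% called), with 22 (1.48%) and 1.80% at an unadjusted p under 0.05, and 19 with the intensity trend, which passed 0. The median difference was 0.11 over the set and 0.21 over all shared windows.

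By annotation, the set lay between introns and the other features. For R101H minus WT, medians were 0.39 for the set, 0.03 for introns, 0.52 for 5' UTR, 0.63 for coding sequence, 0.63 for lncRNA exons and 0.80 for 3' UTR windows. For R62W minus WT they were 0.18 for the set, -0.09 for introns and 0.33 for coding sequence. Inside the set, windows with no intron in their annotation had medians of 0.81 for R101H minus WT (50 windows) and 0.43 for R62W minus WT (51 windows). Windows far from splice sites had 0.23 (26 windows) and 0.08 (28 windows). The differences between these classes were not tested.

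**Figure D4:**
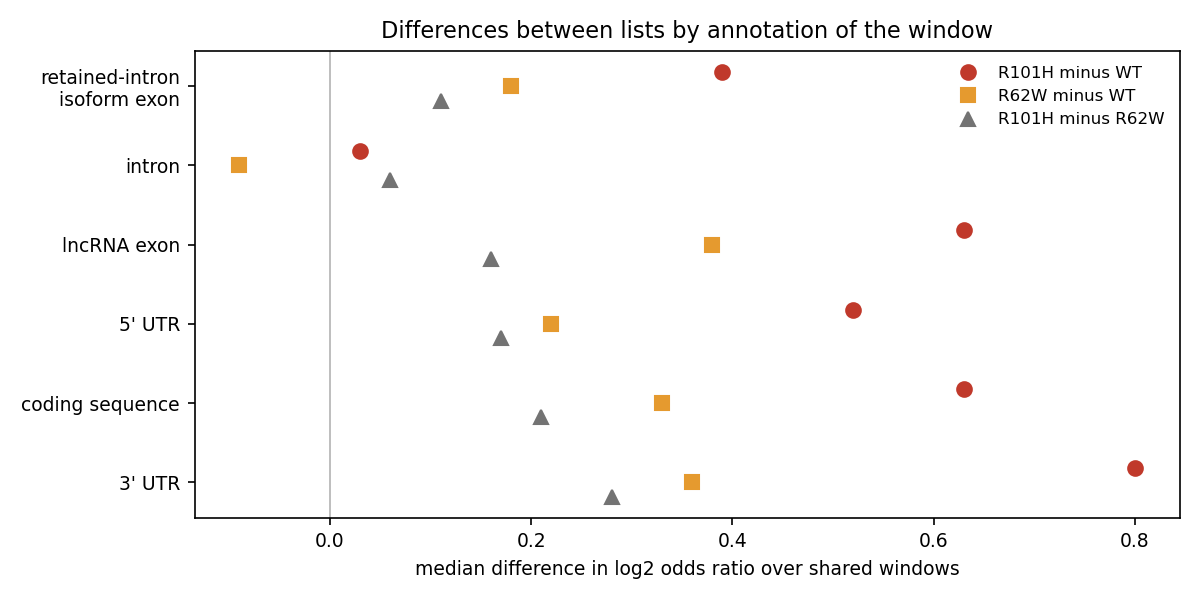
Median difference in log2 odds ratio (horizontal axis) over the windows shared by 2 lists, by leading annotation (vertical axis), for R101H minus WT (red circles), R62W minus WT (orange squares) and R101H minus R62W (grey triangles). The retained-intron isoform exon windows, at 0.39, 0.18 and 0.11, lie above introns, at 0.03, -0.09 and 0.06, and below coding sequence, at 0.63, 0.33 and 0.21.

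In windows that passed in every replicate of both groups, 2 windows of the set were higher in R101H than in WT by limma. These were 2 of 68 windows, where 498 of 2730 were called in all (18.2% called), so the set held a smaller share than the background. The first was in NPIPA1, at chr16:14950050-14950110, with replicates of 4.36 and 5.41 in R101H, against 2.12, 2.83 and 2.98 in WT. The groups did not overlap, and the difference was 2.24 (SE 0.46, limma adjusted p = 0.0456). R62W had 3.81, 4.66 and 5.03 there, 1.86 above WT (SE 0.41, limma adjusted p = 0.119). The second was in FAM189B at chr1:155253634-155253732, covered by retained-intron isoforms alone, with 2.38 and 2.77 in R101H, against 1.20, 1.35 and 1.51 in WT. Its difference was 1.23 (SE 0.32, limma adjusted p = 0.0487). R62W had 1.80, 2.10 and 2.34, above each WT replicate too, and input counts were 52 in R101H, 87 in R62W and 87 in WT. Over all shared windows the limma adjusted p of these 2 differences was 0.162 and 0.163, so the calls depend on which windows are tested. They also depend on the shift of all windows, whose median R101H minus WT difference was 0.91 among the 2730. Relative to the median of all shared windows, the differences were 1.64 in NPIPA1 (limma adjusted p = 0.609) and 0.62 in FAM189B (limma adjusted p = 0.645). For R62W minus WT, 0 of 68 such windows were called where 1 of 2672 was (0.0374% called), with 11 of the set at an unadjusted p under 0.05. For R101H minus R62W, 0 of 830 were called where 0 of 34309 were (0% called), with 14 of the set at an unadjusted p under 0.05.

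The other windows with the largest differences did not pass. In the WDR90 window at chr16:663063-663156, replicates were 3.73 and 4.93 in R101H and 3.29, 3.40 and 4.56 in R62W, against 1.79, 2.60 and 3.50 in WT. R101H lay above WT throughout, by a mean of 1.70 (SE 0.61, limma adjusted p = 0.193), and R62W overlapped WT. In the DDX39B window at chr6:31534512-31534606, R101H had 2.62 and 2.97 and R62W had 2.38, 2.50 and 2.67, against 1.04, 1.80 and 1.80 in WT. All replicates of the substitutions were above those of WT, by means of 1.25 in R101H (SE 0.40, limma adjusted p = 0.172) and 0.97 in R62W (SE 0.30, limma adjusted p = 0.413). In the HNRNPH1 window at chr5:179616959-179617020, R101H had 3.10 and 3.59 and R62W had 2.77, 3.02 and 3.51, against 1.69, 2.23 and 2.81 in WT, so that 1 WT replicate exceeded the lowest of R62W.

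Differences towards lower values in the substitutions than in WT were smaller before the shift of all windows was taken off, and none passed. The window of TUBB4B, a beta tubulin gene, at chr9:137242401-137242495 had 1.99 and 2.61 in R101H and 2.11, 2.44 and 2.54 in R62W, against 2.74, 2.82 and 3.31 in WT. Both groups lay below WT without overlap, by -0.65 in R101H (SE 0.39, limma adjusted p = 0.362) and -0.59 in R62W (SE 0.28, limma adjusted p = 0.532). In CCNL1, which encodes the splicing-associated cyclin L1, R62W had 1.24, 1.54 and 1.77, just under 1.78, 1.84 and 2.15 in WT, while R101H had 1.69 and 2.15. In EGLN2, an oxygen-sensing prolyl hydroxylase gene, R101H had 1.49 and 1.89, against 2.02, 2.27 and 2.39 in WT. Between the substitutions, a window of RPS15, a small-subunit ribosomal protein gene, at chr19:1439249-1439337 had 1.65 and 1.67 in R101H, against 2.16, 2.22 and 3.49 in R62W, a difference of -0.96 (SE 0.48, limma adjusted p = 1). WT had 1.87, 2.27 and 2.40 there, and R101H lay below both groups. Relative to the median of all shared windows, R101H minus WT was -1.26 in TUBB4B, -1.14 in EGLN2 and -1.12 in this RPS15 window. On that scale the windows above had 1.64 in NPIPA1, 1.10 in WDR90, 0.65 in DDX39B and 0.62 in FAM189B, and 0 were called.

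**Figure D5:**
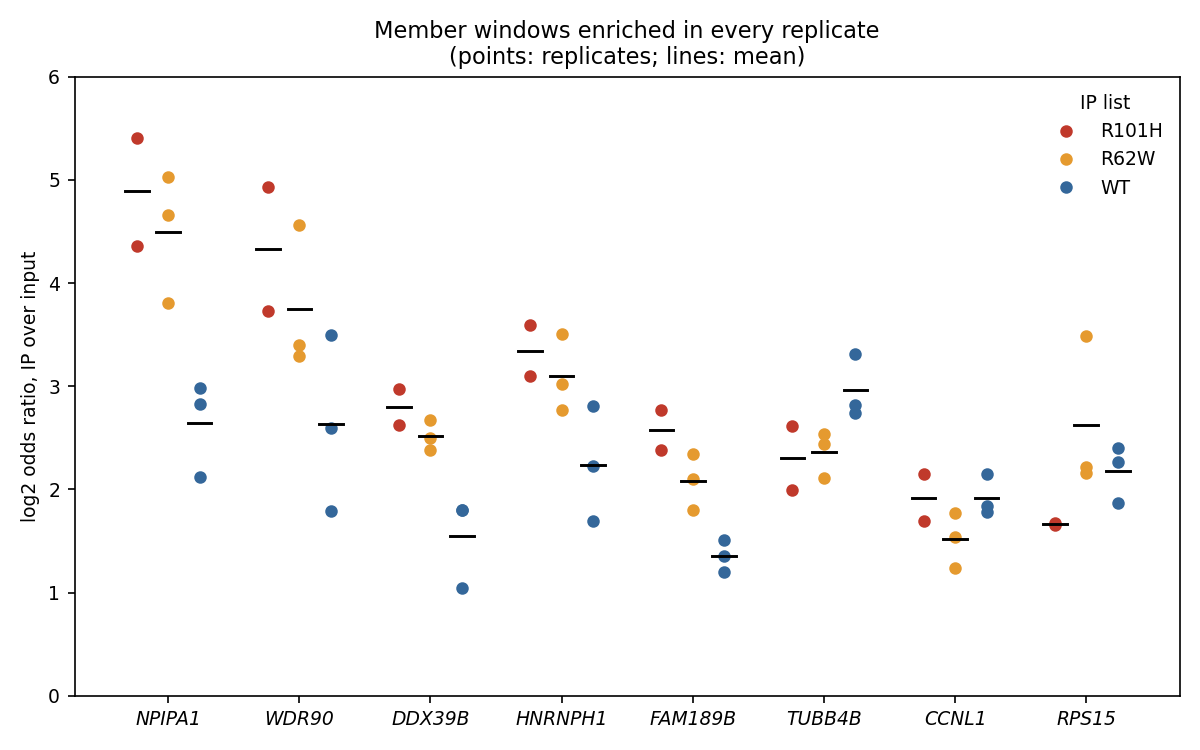
Log2 odds ratio of IP over input (vertical axis) of 8 retained-intron isoform exon windows that passed in every replicate (horizontal axis, by gene), with points for replicates of R101H (red), R62W (orange) and WT (blue) and lines for the mean. In NPIPA1, DDX39B and FAM189B the R101H and R62W points lie above every WT point, and in TUBB4B they lie below every WT point.

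Splicing regulators held the most windows of the gene groups followed. Of 43 genes of hnRNPs and other splicing regulators, 23 had a window of the set, in 20 genes for R101H (128 windows, 5.58% of the set), 21 for R62W (158 windows, 6.38%) and 14 for WT (41 windows, 9.32%). Of their shared windows, 28 of 30 were higher in R101H than in WT (median difference 0.44) and 27 of 37 were higher in R62W (median 0.20), with 0 called in either. These medians were below the 0.60 and 0.26 of all shared windows. Under any leading annotation, 41, 40 and 35 of the 43 genes had a listed window in R101H, R62W and WT. NONO, a paraspeckle protein, had 15 windows in R101H, 16 in R62W and 4 in WT, with median log2 odds ratios of 2.13, 2.17 and 2.05.

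Of 18 genes of SR proteins and relatives, which bind exonic enhancers and promote splicing, 12 had a window in R101H, 8 in R62W and 2 in WT. The 2 WT genes were SRRM2, which encodes a spliceosome scaffold of nuclear speckles, and SRSF5. SRRM2 had the same number, 8 windows, in each list, and its median log2 odds ratio was 2.32 in R101H, 2.05 in R62W and 1.59 in WT. Among the 12 windows of the list shared with WT, 11 were higher in R101H (median difference 0.78) and 12 in R62W (median 0.57), with 0 called in either. They lay in 2 genes and are not independent. A listed window of any leading annotation was found for 17, 16 and 12 of the 18 genes in R101H, R62W and WT. SRSF5 had 11 windows in R101H, 16 in R62W and 4 in WT. SRSF3 and SRSF9 had 3 windows each in R101H, 2 each in R62W and 0 in WT. Of 8 kinase genes that phosphorylate SR proteins, CLK1, CLK3 and SRPK1 had a window. CLK3 had 6 in R101H, 6 in R62W and 2 in WT, and CLK1 had 2, 3 and 0.

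Ribosomal protein genes took 4.05% of the set in R101H, 5.33% in R62W and 5.0% in WT. A window of the set was listed for 39 of 78 genes in R101H (93 windows), 43 in R62W (132 windows) and 9 in WT (22 windows). RPL3 had 6 windows in R101H, 13 in R62W and 0 in WT, and RPL10 had 7, 6 and 1. RPL36 and RPS15 differed from these, with 2 windows each in R101H, 6 and 8 in R62W, and 6 each in WT. Over shared windows of the list, 7 of 12 were higher in R101H than in WT (median difference 0.10) and 14 of 21 in R62W (median 0.05), with 0 called in either. Both medians lay below those of all shared windows. Under any leading annotation, 73, 73 and 39 of the 78 genes had a listed window in R101H, R62W and WT.

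Host genes of snoRNAs and translation factors gave similar counts. Of 58 coding host genes of snoRNAs, which carry these guide RNAs in their introns, 27 had a window in R101H (88 windows), 32 in R62W (111) and 8 in WT (11). Of their shared windows, 5 of 9 were higher in R101H than in WT (median difference 0.05) and 8 of 10 were higher in R62W (median 0.15), with 0 called in either. RACK1, a host gene that encodes a scaffold of the small subunit, had 5 windows in R101H, 8 in R62W and 1 in WT, and all 4 windows it shared between R101H and R62W were lower in R101H (median difference -0.43). Of 47 translation initiation and elongation factor genes, 9 had a window in R101H, 9 in R62W and 4 in WT. EIF4G2, which encodes an initiation factor for cap-independent translation, had 10, 8 and 1, and PABPC4, a poly(A) binding protein, had 7, 9 and 2. EIF3G had 6, 5 and 1, and EIF4A2 had 4, 6 and 2. In the shared windows of these factors, 0 of 5 were higher in R101H than in WT (median difference -0.05) and 4 of 6 were higher in R62W (median 0.14), with 0 called in either. Counting every leading annotation, 52, 53 and 38 of the snoRNA host genes had a listed window in R101H, R62W and WT. For the translation factor genes the counts were 44, 42 and 27.

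The p53 target genes took a larger share of the set in WT than with the substitutions, which was not tested. Of 26 genes, 5 had a window in R101H (18 windows, 0.785% of the set), 6 in R62W (20 windows, 0.807%) and 4 in WT (16 windows, 3.64%). The window counts were thus close, while the whole set was smaller in WT. Counting every leading annotation, 20, 20 and 18 of the 26 genes had a listed window in R101H, R62W and WT. AEN, an exonuclease gene induced by p53, had 3 windows in R101H, 2 in R62W and 7 in WT, with 4 in WT alone. GADD45A, a stress sensor of growth arrest, had 0, 3 and 3, with median log2 odds ratios of 2.66 in R62W and 2.74 in WT. BAX, a pro-apoptotic protein of the mitochondrial membrane, had 7 windows in R101H, 7 in R62W and 5 in WT, at medians of 1.79, 1.79 and 1.96. Of shared windows, 3 of 8 were higher in R101H than in WT (median difference -0.09) and 2 of 10 were higher in R62W (median -0.18), with 0 called in either.

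Other groups had few windows. Of 16 factors of nonsense-mediated decay, 3 had one in R101H, 3 in R62W and 0 in WT, among them SMG5 with 3 windows in R101H and 3 in R62W. Of 48 factors of small-subunit biogenesis, 5, 4 and 1 had one in R101H, R62W and WT. The WT gene was NOP56, a core protein of box C/D snoRNPs, which had 4, 6 and 2 windows in the same order. Among the 24 erythroid and heme genes, UROD, an enzyme of heme synthesis, and SLC25A37, the mitochondrial iron carrier, had windows of the set with both substitutions and 0 in WT. UROD had 4 in R101H and 2 in R62W, with median log2 odds ratios of 2.23 and 3.93. These medians cover different windows, over summed input counts of 20 in R101H and 2 in R62W. The 1 UROD window in both lists was higher in R101H, by 0.21. Under any leading annotation, 15, 15 and 11 of the nonsense-mediated decay factors had a listed window in R101H, R62W and WT. The counts were 46, 43 and 12 for the small-subunit biogenesis factors and 13, 12 and 2 for the erythroid and heme genes.

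The 48 windows in WT alone lay in 34 genes. EGLN2 had 5 such windows, STK11 and AEN had 4 each, MIDN had 3 and ACAP3 had 2. STK11, the gene of the tumour suppressor kinase LKB1, had 0 windows in R101H, 4 in R62W and 5 in WT, with medians of 2.07 in R62W and 3.39 in WT. The coding sequence of MIDN had 14 windows in R101H, 16 in R62W and 5 in WT, and its introns had 7, 11 and 16 listed windows in the same order. MIDN was thus listed with each protein, in coding sequence and in introns. Its retained-intron isoform windows were listed in WT alone at 2.71 to 4.24. Summed over these 3 windows, the pooled IP count was 123 and the pooled input count was 5. Absence of these windows from the substitution lists gives no value for them there.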

How the data were processed

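Per the submitters' processing notes, reads were handled with fastp and STAR on GRCh38. The window caller and tool versions were not given in the sources used here. Per the file headers, the table of each IP group holds, per window, deposited IP and input read counts pooled over its replicates. Its log2 columns, as deposited by the authors, give the odds of IP reads against input reads at the lowest, mean and highest passing replicate. The authors also deposited p-values and q-values of enrichment and the GC fraction of a window. A deposited score, the number of passing replicates, is no read count.

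The unlabelled values of the 2 or 3 passing replicates follow from the lowest, mean and highest. Windows shared by a pair of lists were compared on these in limma 3.58.1 under R 4.3.3 (lmFit, then eBayes) over all shared windows, with Benjamini-Hochberg adjustment. The fit was tested on simulated data, where most added log2 differences of 2 were missed over all shared windows in each comparison. Pooled counts allowed no count model. The labels do not say whether replicates were separate cultures. The p-values therefore cover the spread among these samples alone, and that spread may be technical. Overlap means identical coordinates. "Next to" and "near" a splice site are the lists' own labels. Coordinates are 1-based.

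Members and gene lists were chosen with earlier results of these data known. Windows and genes were named by rule: the highest 5 of each list (1 per gene), the highest 10 in all 3 lists, the 8 genes with most windows, the 5 largest differences each way per comparison among windows passing in every replicate, those called, up to 4 genes per gene list, and the 5 genes with most windows in WT alone or in both substitutions without WT. Not all are printed, and 1 of the 8 genes with most windows is not reported here. Repeat element tables were not used here. Alternatives are in the closing section.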

Additional observations from a re-analysis of the deposited data

How the results depend on the processing

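The number of windows depends on how lists are cut, and the share of the set in each list moves with the cut. Keeping only windows that passed in every replicate left 1005 in R62W (2.61% of the list) and 85 in WT (2.42%), and all in R101H. A highest q of at most 0.05 left 892 in R101H (2.07%), 535 in R62W (2.37%) and 61 in WT (2.04%). One window per gene left 287 (3.54%), 293 (3.78%) and 127 (3.90%). Lists cut to the WT length left 249 in R101H (1.62%) and 336 in R62W (2.18%). Counting each window whose full annotation holds the exon label gave 80595 (86.4%), 72073 (83.3%) and 9772 (63.4%). The share of WT windows also in R62W was 80.0% among windows passing in every replicate, 70.5% with the stricter q and 33.6% with equal lengths, and that in R101H was 80.0%, 78.7% and 31.8%. The share of R62W windows also in R101H was 82.6% among windows passing in every replicate and 44.9% with equal lengths. Without genes of near-identical copies, an alternative chosen after seeing the data like that on window width, 2195, 2371 and 415 windows were left in R101H, R62W and WT.

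Limma called 2 windows of the set for R101H minus WT among those passing in every replicate and 0 over all shared windows. The median R101H minus WT difference was -0.21 after centring on all shared windows and -0.22 for the centred log2 ratio of pooled counts. No paired analysis was possible because the lists carry no replicate numbers, and leaving out each replicate in turn was not run for the same reason. The low counts, the 2 R101H samples and values restricted to passing replicates limit these comparisons.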
